A study of Mus musculus with 4 samples.

Results

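The genes described here are the machinery of DNA replication and of the G1/S transition, 51 in all, chosen by name: origin recognition and licensing factors, the MCM helicase and its activators, polymerases and primase, the sliding clamp with its loader and RPA, Okazaki fragment and chromatin assembly factors, enzymes of nucleotide supply, and regulators of S phase entry. Of the 51 genes, 50 had a probe set that names a single gene, and 49 passed the filter on dim signals, among 11546 genes that did so in all. Chaf1a, the large subunit of chromatin assembly factor 1, had no such probe set. Tyms, thymidylate synthase, stayed below the filter, with 20.3 on the irradiated and 128.5 on the unirradiated array labelled Wip1-/-, against 70.1 on the irradiated and 36.7 on the unirradiated Wip1+/+ array. A further probe set that Tyms shares with a pseudogene was left out.

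RNA of mouse embryonic fibroblasts, connective tissue cells taken from embryos, was hybridised to 4 Affymetrix Mouse 430 2.0 arrays. The 4 groups were cells labelled Wip1-/- harvested 4 h after 5 Gy of gamma radiation, unirradiated cells labelled Wip1-/-, Wip1+/+ cells harvested 4 h after the same dose, and unirradiated Wip1+/+ cells, given as 0 h. Each group held 1 array, so there was no test and no p-value, and nothing below measures the spread between cultures. Irradiation and 4 h of further culture cannot be told apart, and in such bulk samples fewer cells in S phase and less RNA per cell cannot be told apart either. Wip1 is the phosphatase encoded by Ppm1d, which dampens p53 and the kinases of the DNA damage response. The brighter of the Ppm1d probe sets read 482 and 504 on the irradiated and unirradiated arrays labelled Wip1-/-, against 364 and 375 on the Wip1+/+ arrays. The other read 561 and 219 on the arrays labelled Wip1-/-, against 463 and 317. No source used here places these probes relative to the deleted part, so this checks nothing, and the genotype is given as labelled.

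Replication begins when the origin recognition complex, with Cdc6 and Cdt1, loads the MCM hexamer onto DNA in G1. At the start of S phase, the kinases Cdc7-Dbf4 and cyclin E-CDK2 turn this into an active helicase with Cdc45 and the GINS complex, after which primase and the polymerases follow. Most of these genes are transcribed in late G1 by E2F factors. After DNA damage, p53 induces the CDK inhibitor p21, which keeps the pocket proteins bound to E2F sites and is known to lower the transcription of these genes.

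Among the 4 arrays, the unirradiated one labelled Wip1-/- was the array that stood apart. The log2 ratios of 18 spike-in controls had an SD of 0.44 to 0.47 when it was one of the pair and 0.07 to 0.10 otherwise, and the ratio of 3' to 5' signal for Gapdh was 0.98 on it, against 0.70 to 0.73 on the others, while that for Actb was 1.25, against 1.215 to 1.225. Fibroblast markers were present on every array: all 13 with a probe set were above the floor, a signal of 46.5 under which values were not told apart. Macrophage markers differed with the genotype label. Their summed signal was 2536 and 2969 on the irradiated and unirradiated arrays labelled Wip1-/-, and 10911 and 10603 on the Wip1+/+ arrays. Of 17 such markers, 14 were above the floor on each array labelled Wip1-/- and 16 on each Wip1+/+ array, and none was listed at 0.

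A property that the choice of genes did not use was sought in their promoters, taken from RefSeq (GRCm38.p6) as 250 bases before to 50 bases after each start site, for 42 of the 51 genes. An E2F motif, one of TTTCCCGC, TTTCGCGC, TTTGCCGC or TTTGGCGC on either strand, was present in 14 of the 42 genes, or 33.3%. Among 9369 genes that entered the comparisons and had a promoter, the share was 4.76%, and among all 32851 windows it was 2.26%. The median GC content was 61.7% in the members and 61.0% in the genes that entered. The CHR element (TTTGAA or TTCGAA, either strand), known from mitotic promoters, was found in 9 of 42 members, or 21.4%, beside 16.1% of the genes that entered. Among 43 other genes of the pathway, which are no members, the E2F share was 39.5%. In 22 genes of mitosis and G2/M the shares were the other way round, with a CHR in 17 genes and an E2F motif in 1. The CCAAT box was in 24 of 42 members (57.1%) and in 42.9% of the genes that entered. No test was made of these shares, and a motif match is not a bound site.

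Among the MCM genes, 4 of the 5 that had a sequence held an E2F motif. These promoters are printed because the probe sets of the MCM subunits differed from one another in the arrays, and Mcm2 is included as the subunit with none of the 4 words. Orc1 and Gins3 are shown as members outside the helicase core that carried the motif and were at least 2-fold apart between arrays. Each sequence runs 5′ to 3′ along the gene's own strand, and capitals mark the E2F motif. In Mcm5 and Mcm6, motifs on opposite strands overlap by 4 bases and form 1 longer run of capitals. In Mcm7, the motif near the start site shares 1 base with a CCAAT box.
Mcm2, chr6:88898731-88899030, minus strand: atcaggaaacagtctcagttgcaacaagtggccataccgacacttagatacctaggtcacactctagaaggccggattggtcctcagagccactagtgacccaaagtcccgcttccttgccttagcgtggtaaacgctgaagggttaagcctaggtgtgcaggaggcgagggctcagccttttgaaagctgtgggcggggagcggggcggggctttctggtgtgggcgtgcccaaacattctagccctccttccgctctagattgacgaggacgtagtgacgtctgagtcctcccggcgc
Mcm3, chr1:20820263-20820562, minus strand: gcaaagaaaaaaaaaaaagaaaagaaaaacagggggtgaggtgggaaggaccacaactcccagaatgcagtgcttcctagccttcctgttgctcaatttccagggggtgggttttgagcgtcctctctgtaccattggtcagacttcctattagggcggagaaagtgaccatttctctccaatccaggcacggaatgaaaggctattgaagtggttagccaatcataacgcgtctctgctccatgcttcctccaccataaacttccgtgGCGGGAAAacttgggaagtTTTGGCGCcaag
Mcm5, chr8:75109259-75109558, plus strand: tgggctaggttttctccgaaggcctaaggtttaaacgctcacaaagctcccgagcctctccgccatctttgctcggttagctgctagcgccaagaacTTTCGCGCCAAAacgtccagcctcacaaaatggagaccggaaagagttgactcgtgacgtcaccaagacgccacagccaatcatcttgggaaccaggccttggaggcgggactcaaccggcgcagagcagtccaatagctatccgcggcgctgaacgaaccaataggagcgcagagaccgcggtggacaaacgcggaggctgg
Mcm6, chr1:128359656-128359955, minus strand: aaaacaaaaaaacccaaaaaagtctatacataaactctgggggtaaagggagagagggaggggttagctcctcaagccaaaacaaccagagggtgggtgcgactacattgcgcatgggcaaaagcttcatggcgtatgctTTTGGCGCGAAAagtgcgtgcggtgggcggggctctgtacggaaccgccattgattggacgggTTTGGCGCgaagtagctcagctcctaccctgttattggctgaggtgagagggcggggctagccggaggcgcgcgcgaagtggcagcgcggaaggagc
Mcm7, chr5:138171834-138172133, minus strand: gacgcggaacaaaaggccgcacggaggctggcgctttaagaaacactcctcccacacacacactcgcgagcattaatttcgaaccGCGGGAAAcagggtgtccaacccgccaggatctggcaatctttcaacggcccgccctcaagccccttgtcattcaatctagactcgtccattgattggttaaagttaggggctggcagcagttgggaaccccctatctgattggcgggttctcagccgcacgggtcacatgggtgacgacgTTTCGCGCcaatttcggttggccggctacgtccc
Orc1, chr4:108579204-108579503, plus strand: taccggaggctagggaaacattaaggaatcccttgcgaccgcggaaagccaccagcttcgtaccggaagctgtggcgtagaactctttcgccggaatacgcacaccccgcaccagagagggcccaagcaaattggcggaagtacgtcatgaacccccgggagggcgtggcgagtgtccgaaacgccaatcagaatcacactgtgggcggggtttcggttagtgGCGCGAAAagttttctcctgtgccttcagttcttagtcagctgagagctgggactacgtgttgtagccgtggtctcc
Gins3, chr8:95633309-95633608, plus strand: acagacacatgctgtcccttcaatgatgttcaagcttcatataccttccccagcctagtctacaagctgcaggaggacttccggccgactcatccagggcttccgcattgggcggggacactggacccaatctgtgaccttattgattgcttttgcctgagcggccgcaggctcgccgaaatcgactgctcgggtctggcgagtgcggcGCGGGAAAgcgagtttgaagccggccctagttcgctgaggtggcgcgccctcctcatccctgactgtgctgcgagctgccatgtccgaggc

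**Figure D1:**
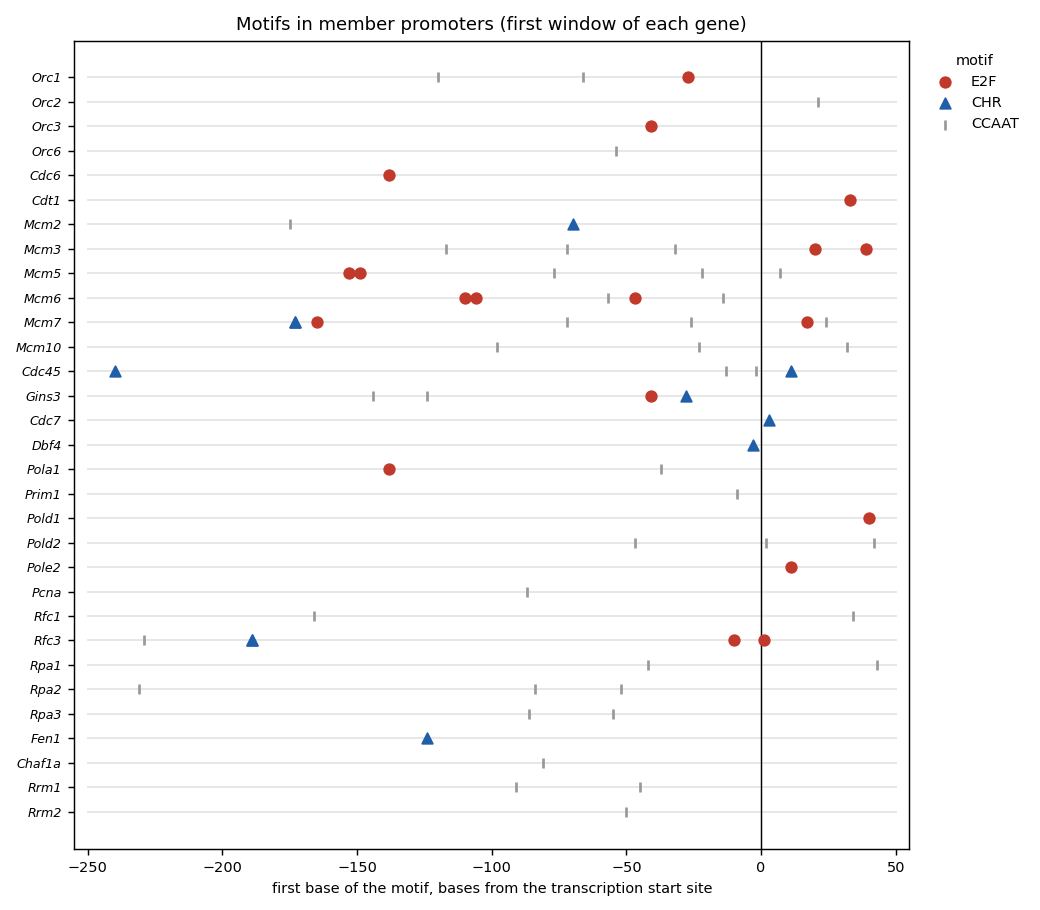
Position of E2F, CHR and CCAAT motifs in the promoters of members with at least 1 of them in the first window of the gene; the x axis is the distance of the motif's first base from the transcription start site in bases, and each row is a gene. The E2F motifs of Orc1, Orc3 and Gins3 lie 27 to 41 bases before the start, and those of Mcm3 lie after it, at bases 20 and 39.

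Across the group, ratios of members spread around 1 in all 4 comparisons. After irradiation, 23 of 49 members were higher and 26 lower in cells labelled Wip1-/-, beside 47.4% and 52.3% of all genes, with a median log2 ratio of -0.11 beside -0.03 over all genes. In Wip1+/+ cells, 21 were higher and 27 lower after irradiation, with a median of -0.05 beside 0.01 over all genes. The members below 1 in Wip1+/+ cells were thus 55.1% of the group, where 47.4% of all genes were below 1 and 52.3% above. Between genotypes, 29 members were higher and 20 lower on the irradiated array labelled Wip1-/- than on the irradiated Wip1+/+ array, beside 49.0% and 50.6% of all genes, with a median of 0.03. Without irradiation, 24 were higher and 25 lower, beside 53.5% and 46.3%, with a median of -0.01. For comparison, 24 genes of mitosis and G2/M had a median of -0.12 in irradiated over unirradiated Wip1+/+ cells, with 18 below 1, and no test of the difference between the groups was possible.

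Members at least 1.5-fold apart were few in pairs without the array that stood apart. In irradiated over unirradiated Wip1+/+ cells, Orc5 and Gins3 were at least 1.5-fold higher and Mcm2 and Cdc7 at least 1.5-fold lower, while 5.6% of all genes passed in the first direction and 5.13% in the second. Between the irradiated genotypes, Mcm2 and Cdc7 were higher and Gins3 and Prim2 lower on the array labelled Wip1-/-, beside 6.6% and 7.95% of all genes. In pairs with the array that stood apart the counts were 10 higher and 10 lower after irradiation of cells labelled Wip1-/-, beside 15.5% and 15.4% of all genes. In unirradiated cells labelled Wip1-/- over Wip1+/+, 10 were higher and 8 lower, beside 16.7% and 16.2%. Members past 2-fold numbered 3 higher and 2 lower after irradiation of cells labelled Wip1-/- (5.7% and 4.63% of all genes), 1 and 0 in Wip1+/+ cells (1.58% and 1.5%), 1 and 1 between irradiated genotypes (2.35% and 2.94%), and 2 and 3 between unirradiated ones (5.14% and 6.82%).

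**Figure D2:**
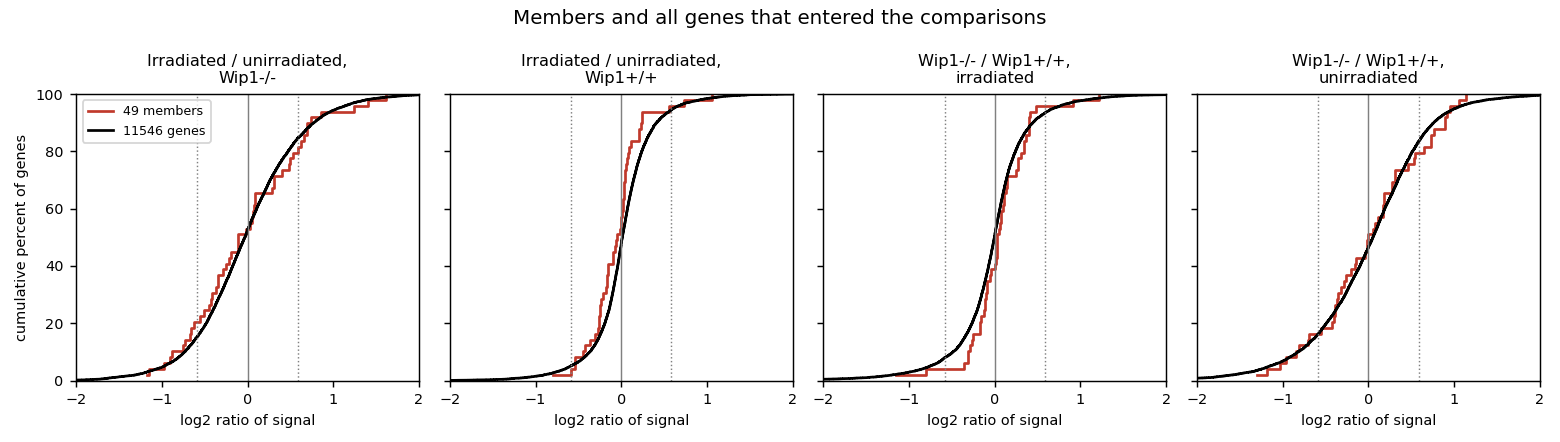
Cumulative percent of genes (y axis) against the log2 ratio of signal (x axis) in each pair of arrays, for 49 members and all 11546 genes; dotted lines mark 1.5-fold. In each panel the members' curve runs close to that of all genes, and both are wider in the pairs with the unirradiated array labelled Wip1-/-.

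The error available is that between probe sets of one gene. Its SD on the log2 scale was 0.62 in cells labelled Wip1-/- and 0.37 in Wip1+/+ cells for the irradiation ratios, and 0.41 with and 0.65 without irradiation for the genotype ratios, over all genes. Over the members it was 0.57 in cells labelled Wip1-/- and 0.31 in Wip1+/+ cells for the irradiation ratios, and 0.47 with and 0.57 without irradiation for the genotype ratios. A 1.5-fold difference is 0.585 on this scale, close to 1 such SD in the pairs with the array that stood apart. Of the 49 members, 29 had several probe sets past the filter. All probe sets of a gene went one way in 19 of the 29 in irradiated over unirradiated Wip1+/+ cells (65.5%, beside 42.9% of all genes) and in 18 between irradiated genotypes (62.1%, beside 45.9%). They did so in 10 of 29 after irradiation of cells labelled Wip1-/- (34.5%, beside 39.3%) and in 13 of 29 between unirradiated genotypes (44.8%, beside 41.0%).

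Over all 4 arrays, the highest and lowest differed by a median of 1.5-fold in the members and 1.53-fold over all genes. Leaving out the array that stood apart could only narrow this range or keep it, in any gene. The values that follow are for the other 3 arrays. The highest and lowest of those arrays differed by a median of 1.24-fold, and by less than 1.5-fold in 42 of the 49 members (85.7%). Over all genes the median was also 1.24-fold, with 75.4% under 1.5-fold. Where the mean signal reached 500, as in 31 of the 49 members, the median over genes was 1.16-fold, with 92.3% under 1.5-fold. The 7 others were Mcm2, Gins3, Cdc7, Prim2, Orc5, Mcm10 and Pold1. Over all 4 arrays, 23 members were at least 1.5-fold apart in one of the comparisons. In every one of these 23 the unirradiated array labelled Wip1-/- was the highest or the lowest, the highest in 13 and the lowest in 10, with a tie in Gins3. Some of the comparisons that picked these 23 include that array, so the choice itself favours such an outcome. No share was taken over all genes picked in the same way. Without such a choice, that array was at an extreme in 83.7% of the 49 members and in 74.3% of all genes.

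**Figure D3:**
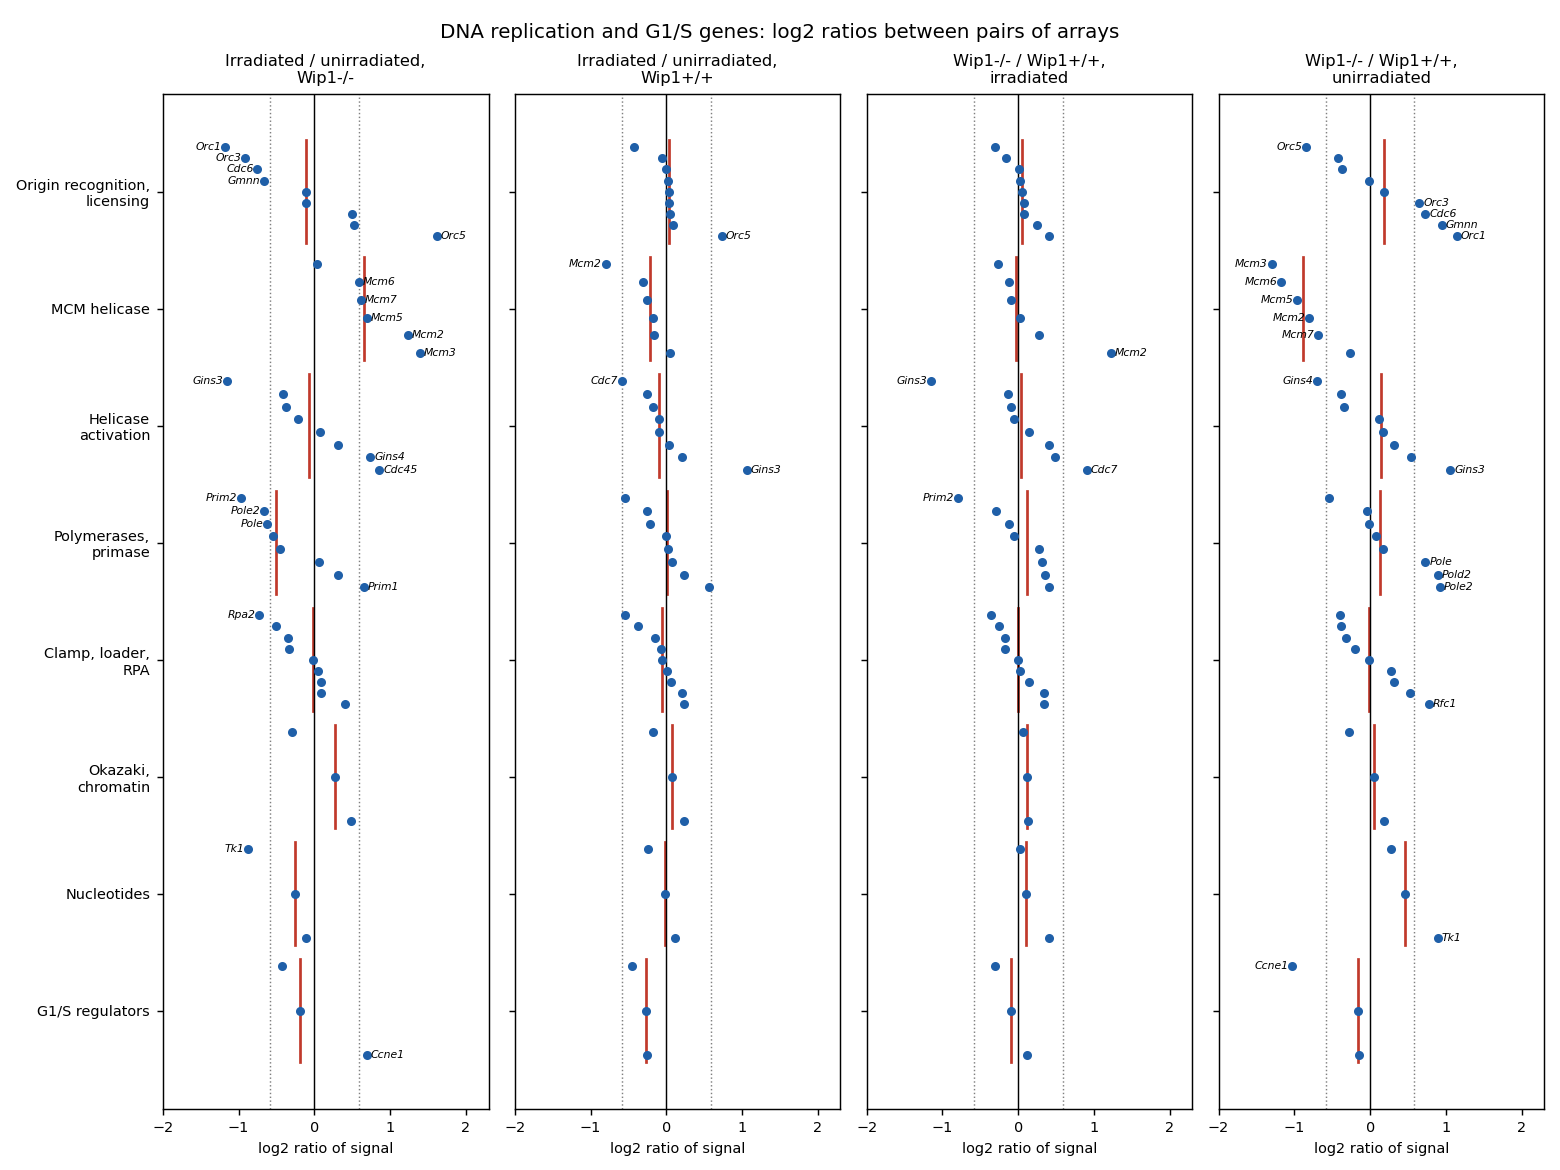
Log2 ratio of signal (x axis) of each member in the 4 pairs of arrays, by role (rows); points are genes, red bars the median of a role, dotted lines 1.5-fold, and names are given for members past it. The widest points sit in the first and last panels, both with the unirradiated array labelled Wip1-/-, where MCM subunits stand to the right and to the left.

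The MCM subunits form the ring that unwinds DNA. By the brightest probe set, all 6 were higher after irradiation in cells labelled Wip1-/-, with a median log2 ratio of 0.66, and all 6 were lower on the unirradiated array labelled Wip1-/- than on the unirradiated Wip1+/+ array, with a median of -0.89. Both medians share that unirradiated array. In Wip1+/+ cells, 5 of 6 were lower after irradiation, with a median of -0.22, and between irradiated genotypes 3 were higher and 3 lower, with a median of -0.04.

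Mcm2, which ties the helicase to histones and is a substrate of Cdc7, read 1704 on the irradiated and 721 on the unirradiated array labelled Wip1-/-, against 729 on the irradiated and 1266 on the unirradiated Wip1+/+ array. It was thus 2.36-fold higher after irradiation under one label and 1.74-fold lower under the other. Mcm2 and Gins3 were the 2 members past 1.5-fold in opposite directions, as were 2.13% of all genes. Its other probe set read 911 and 1056 on the irradiated and unirradiated arrays labelled Wip1-/-, against 891 and 1081 on the Wip1+/+ arrays. That set was lower after irradiation in both, with log2 ratios of -0.21 and -0.28, and did not show the genotype contrast.

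Mcm3 read 1044 on the irradiated and 395 on the unirradiated array labelled Wip1-/-, against 868 on the irradiated and 970 on the unirradiated Wip1+/+ array. The first pair differed 2.64-fold, but the other 4 probe sets of Mcm3 had log2 irradiation ratios of -0.36 to 0.26 in cells labelled Wip1-/-. In Wip1+/+ cells the 5 probe sets lay between -0.55 and 0.04.

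Mcm5, whose promoter above carries the paired E2F motifs, read 1384 on the irradiated and 856 on the unirradiated array labelled Wip1-/-, against 1475 and 1670 on the irradiated and unirradiated Wip1+/+ arrays. Mcm6 read 2030 on the irradiated and 1346 on the unirradiated array labelled Wip1-/-, against 2445 and 3039 on the Wip1+/+ arrays in the same order. Mcm7 read 3172 on the irradiated and 2060.5 on the unirradiated array labelled Wip1-/-, against 3438 and 3318 on the Wip1+/+ arrays. In all 3 the unirradiated array labelled Wip1-/- was the lowest. Between unirradiated genotypes, the second probe sets ran the other way in 2 of them. That of Mcm6 had 872 and 1786 on the irradiated and unirradiated arrays labelled Wip1-/-, against 865 and 924 on the Wip1+/+ arrays. The second of Mcm7 had 1737 and 2236, against 1944 and 1740. The second of Mcm5 had 629 and 729, against 783 and 803, a log2 ratio of -0.14 between unirradiated genotypes where the brightest gave -0.96. After irradiation of cells labelled Wip1-/-, the second probe sets of all 3 were lower. Their log2 ratios were -0.21 in Mcm5, -1.03 in Mcm6 and -0.36 in Mcm7. The dimmer sets of Mcm7 gave 0.23 and -0.55 there, and -0.39 and 0.65 between unirradiated genotypes.

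Mcm4 was the steadiest subunit by the brightest probe set, with 1777 and 1745 on the irradiated and unirradiated arrays labelled Wip1-/-, against 1751 and 2092.5 on the Wip1+/+ arrays. With each gene taken as the median of its probe sets, the subunit median of the irradiation ratio in cells labelled Wip1-/- was -0.003, with 3 subunits above and 3 below 1. Between unirradiated genotypes the median shrank to -0.21, with 5 of 6 subunits still below 1. The Wip1+/+ irradiation median was -0.16 by the same rule, with 5 of 6 still below 1. The contrast between genotypes in the MCM response therefore rested on which probe set stood for each gene.

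**Figure D4:**
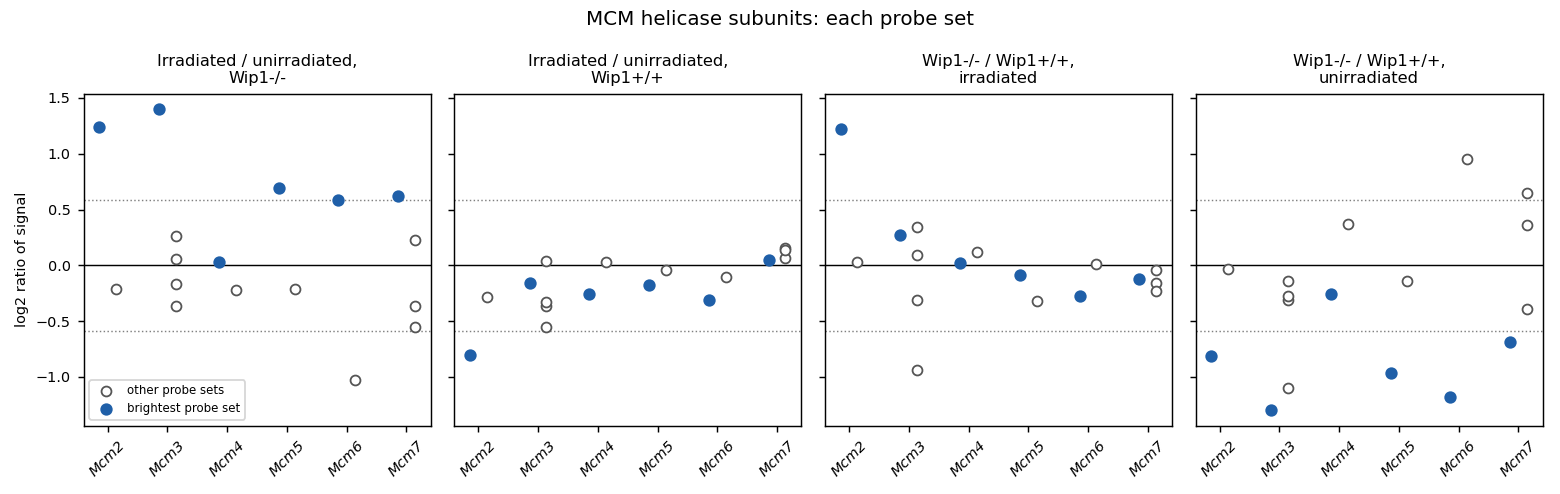
Log2 ratio of signal (y axis) of every probe set past the filter for the 6 MCM subunits (x axis), in the 4 pairs of arrays; filled points are the brightest probe set of a gene, open points its others, and dotted lines mark 1.5-fold. Filled and open points lie apart in the first and last panels, where 3 and 7 of 11 open points share the sign of their filled point. In irradiated over unirradiated Wip1+/+ cells 9 of 11 do.

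Origin recognition and licensing genes diverged from one another. Orc5, a subunit of the origin recognition complex with 1 probe set, read 467 on the irradiated and 152 on the unirradiated array labelled Wip1-/-, against 457 on the irradiated and 275 on the unirradiated Wip1+/+ array. It was higher after irradiation under both labels, 3.07-fold and 1.66-fold, and was the only member at least 1.5-fold higher in both. The irradiated arrays matched within 1.02-fold. Over all genes, 15.5% were at least 1.5-fold higher after irradiation in cells labelled Wip1-/- and 5.6% in Wip1+/+ cells. The share of all genes that passed in both was not counted.

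Orc1, the subunit whose level is known to follow the cell cycle, read 176 on the irradiated and 398 on the unirradiated array labelled Wip1-/-, against 174 and 181 on the irradiated and unirradiated Wip1+/+ arrays. One array was high and the other 3 within 1.04-fold of one another. A dimmer probe set of Orc1 did not show this, with 117 and 142 on the irradiated and unirradiated arrays labelled Wip1-/-, against 111 and 159 on the Wip1+/+ arrays. Orc3, another subunit, read 828 and 1561 on the irradiated and unirradiated arrays labelled Wip1-/-, against 1028 and 994 on the Wip1+/+ arrays. Its second probe set, at 108 and 172 against 199 and 136, was also lower after irradiation in cells labelled Wip1-/- and higher in Wip1+/+ cells.

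Cdc6, the ATPase that recruits the helicase to origins, read 212 on the irradiated and 355 on the unirradiated array labelled Wip1-/-, against 160 on the irradiated and 214 on the unirradiated Wip1+/+ array. It was lower after irradiation under both labels, by 1.68-fold and 1.34-fold, and higher in cells labelled Wip1-/- at both times. Gmnn, geminin, the inhibitor of Cdt1 that prevents relicensing, read 906 and 1442 on the irradiated and unirradiated arrays labelled Wip1-/-, against 760 and 746 on the Wip1+/+ arrays. Both genes had 1 probe set past the filter. Cdt1 itself was under 1.5-fold in every pair by its brightest probe set, with a log2 irradiation ratio of 0.50 in cells labelled Wip1-/-, where its second probe set gave -0.78. Orc6 was the steadiest of the group, with 900 and 970 on the irradiated and unirradiated arrays labelled Wip1-/-, against 1006 and 982 on the Wip1+/+ arrays. Orc2 and Orc4 stayed within 1.5-fold in every pair by their brightest probe sets.

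**Figure D5:**
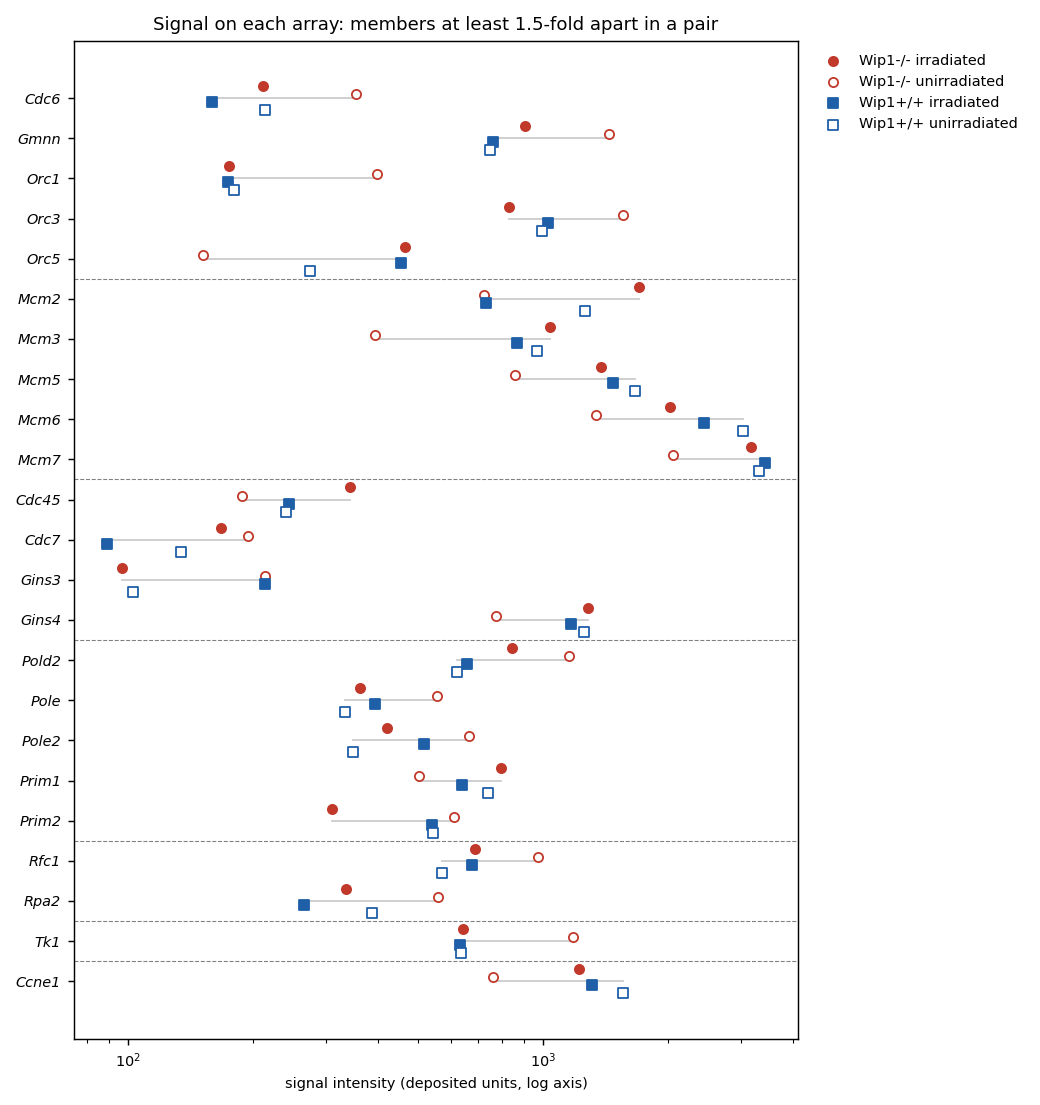
Signal intensity on a log axis (x axis) of the 23 members at least 1.5-fold apart in a comparison (rows, grouped by role), by their brightest probe set; red circles are arrays labelled Wip1-/-, blue squares Wip1+/+, filled irradiated and open unirradiated, 1 array each. In Orc1 and Tk1 the other 3 arrays lie together and the open red circle stands alone, while in Gins3 the arrays fall into 2 pairs that follow neither genotype nor irradiation.

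Among helicase activators, Gins3, a GINS subunit, read 96.8 on the irradiated and 215 on the unirradiated array labelled Wip1-/-, against 215 on the irradiated and 103 on the unirradiated Wip1+/+ array. It was 2.22-fold lower after irradiation under one label and 2.09-fold higher under the other. Its second probe set, with 153 and 136 on the irradiated and unirradiated arrays labelled Wip1-/-, against 110 and 92.0 on the Wip1+/+ arrays, was higher after irradiation in both, with log2 ratios of 0.17 and 0.25. It was also higher in cells labelled Wip1-/- at both times, so that the probe sets of Gins3 disagreed in 2 of the 4 comparisons.

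Cdc7, the kinase that fires origins, was dim. It read 168 and 195 on the irradiated and unirradiated arrays labelled Wip1-/-, against 89.1 and 134 on the Wip1+/+ arrays, and so was lower after irradiation under both labels, by 1.16-fold and 1.51-fold. Its second probe set had the genotypes the other way round, with 47.7 and 54.1 on the arrays labelled Wip1-/-, against 125 and 103 on the Wip1+/+ arrays. That set was higher after irradiation in Wip1+/+ cells, with a log2 ratio of 0.27, and its 47.7 lay close to the floor of 46.5. Dbf4, the subunit that activates Cdc7, was lower after irradiation under both labels, with log2 ratios of -0.41 and -0.17.

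Cdc45, the helicase cofactor, read 343 and 189 on the irradiated and unirradiated arrays labelled Wip1-/-, against 245 and 241 on the Wip1+/+ arrays. Gins4 read 1288 and 773 on the irradiated and unirradiated arrays labelled Wip1-/-, against 1171 and 1257 on the Wip1+/+ arrays. Both were lowest on the unirradiated array labelled Wip1-/- and had 1 probe set past the filter. Gins1 varied least among the activators, with 280 and 362 on the irradiated and unirradiated arrays labelled Wip1-/-, against 299 and 321 on the Wip1+/+ arrays. Gins2, of the same complex, and Mcm10, a scaffold between helicase and polymerase, were under 1.5-fold in each comparison by their brightest probe sets. A dimmer probe set of Mcm10 had log2 irradiation ratios of 0.75 in cells labelled Wip1-/- and -1.32 in Wip1+/+ cells.

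After irradiation of cells labelled Wip1-/-, 5 of 8 polymerase genes were below 1, beside 52.3% of all genes, with a median of -0.50, while 4 of 8 were below 1 in Wip1+/+ cells, with a median of 0.01. Polymerase epsilon, the leading strand enzyme, had a catalytic and an accessory subunit among the members. Pole read 362 and 557 on the irradiated and unirradiated arrays labelled Wip1-/-, against 395 and 335 on the Wip1+/+ arrays. Pole2 read 422 and 664 on the irradiated and unirradiated arrays labelled Wip1-/-, against 517 and 350 on the Wip1+/+ arrays. The 2 genes were lower after irradiation under one label, by 1.54-fold and 1.58-fold, and higher under the other, by 1.18-fold and 1.48-fold. The subunits Pole3 and Pole4, which are no members, did not share this by their brightest probe sets. Pole3 had log2 irradiation ratios of -0.24 in cells labelled Wip1-/- and -0.07 in Wip1+/+ cells, and Pole4 had 0.33 and 0.03.

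Pold2, a subunit of the lagging strand polymerase delta, read 843 and 1155 on the irradiated and unirradiated arrays labelled Wip1-/-, against 658 and 621 on the Wip1+/+ arrays. It was higher in cells labelled Wip1-/- at both times, by 1.28-fold and 1.86-fold. Pold1, the catalytic subunit, had equal irradiation ratios under both labels, with log2 values of -0.55 and -0.54, and its second probe set gave -0.59 and -0.17. Pold1 and Orc1 were the 2 of 29 members with several probe sets in which every one was lower after irradiation under both labels, and Fen1, below, the 1 in which every one was higher. The same count was not made over all genes, and the brightest probe set of Orc1 had only -0.05 in Wip1+/+ cells.

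The primase subunits, which lay down the RNA primer, had brightest probe sets of opposite sign after irradiation in cells labelled Wip1-/-, and their second probe sets had the signs exchanged. Prim1, the catalytic one, read 793 and 503 on the irradiated and unirradiated arrays labelled Wip1-/-, against 638 and 737 on the Wip1+/+ arrays. By the second probe set it read 243 and 256 on the irradiated and unirradiated arrays labelled Wip1-/-, against 330 and 276 on the Wip1+/+ arrays, with log2 irradiation ratios of -0.08 and 0.26. Prim2 read 311 and 611 on the irradiated and unirradiated arrays labelled Wip1-/-, against 542 and 544 on the Wip1+/+ arrays. In Prim2 the irradiated array labelled Wip1-/- was the low one, 1.74-fold below the irradiated Wip1+/+ array. Before irradiation this probe set was higher under that label, with a log2 ratio of 0.17. Its second probe set, at 373 and 292 against 527 and 509, was lower under that label at both times, and higher after irradiation. Pola2, of the polymerase that extends the primer, was the steadiest here, with 313 and 253 on the irradiated and unirradiated arrays labelled Wip1-/-, against 260 and 256 on the Wip1+/+ arrays.

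The clamp, clamp loader and RPA genes varied less. Pcna, the sliding clamp and also a p53-responsive gene, read 6904 and 6503 on the irradiated and unirradiated arrays labelled Wip1-/-, against 7747 and 8600 on the Wip1+/+ arrays. All its ratios were under 1.5-fold. Rfc1, the large loader subunit, read 685 and 975 on the irradiated and unirradiated arrays labelled Wip1-/-, against 677 and 571 on the Wip1+/+ arrays. Its ratio between unirradiated genotypes was 0.77 on the log2 scale, and its other probe sets gave 0.30 and -0.28. Rpa2, which is phosphorylated at stalled forks, read 336 and 559 on the irradiated and unirradiated arrays labelled Wip1-/-, against 266 and 388 on the Wip1+/+ arrays. By this probe set Rpa2 was lower after irradiation under both labels, by 1.66-fold and 1.46-fold, while its second set read 348 and 317 against 325 and 343. By the brightest probe set Rfc2 varied least, with 883 and 830 on the irradiated and unirradiated arrays labelled Wip1-/-, against 996 and 953 on the Wip1+/+ arrays. Its dimmer probe sets disagreed, with log2 irradiation ratios of 1.13 and -0.53 in cells labelled Wip1-/-. The other 5 genes, Rfc3, Rfc4, Rfc5, Rpa1 and Rpa3, stayed within 1.32-fold in all 4 comparisons by their brightest probe sets.

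In nucleotide supply, Tk1, the thymidine kinase of S phase, read 643 and 1184 on the irradiated and unirradiated arrays labelled Wip1-/-, against 631 and 637 on the Wip1+/+ arrays. Here again 1 array stood 1.84-fold or more above 3 that agreed within 1.02-fold. The ribonucleotide reductase genes did not pass 1.5-fold by their brightest probe sets. Rrm1 read 3721 and 4017 on the irradiated and unirradiated arrays labelled Wip1-/-, against 2812 and 3322 on the Wip1+/+ arrays. Rrm2, the subunit that is limiting in S phase, had log2 irradiation ratios of -0.25 in cells labelled Wip1-/- and 0.11 in Wip1+/+ cells. Its dimmest probe set read 2874 on the irradiated and 1770 on the unirradiated Wip1+/+ array, and so was 1.62-fold higher after irradiation there. Fen1, the flap nuclease of Okazaki fragments, read 1158 and 952 on the irradiated and unirradiated arrays labelled Wip1-/-, against 1076 and 918 on the Wip1+/+ arrays. It was higher after irradiation under both labels, by 1.22-fold and 1.17-fold, and its second probe set went the same way. Lig1, the ligase that seals them, and Chaf1b, of chromatin assembly, were under 1.5-fold in every pair.

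The 3 G1/S regulators were all lower after irradiation in Wip1+/+ cells, where 47.4% of all genes were below 1. Their median log2 ratio was -0.27, and none was 1.5-fold lower. Ccne1, cyclin E1, read 1223 and 761 on the irradiated and unirradiated arrays labelled Wip1-/-, against 1313 and 1558 on the Wip1+/+ arrays. Its second probe set had ratios of the same sign and smaller size, with 566 and 476 against 572 and 639. E2f1, the transcription factor of this program, read 371 and 499 on the irradiated and unirradiated arrays labelled Wip1-/-, against 460 and 555 on the Wip1+/+ arrays. Its second probe set had -0.54 in Wip1+/+ cells and 0.22 in cells labelled Wip1-/-. Ccne2, cyclin E2, was lower after irradiation under both labels, with log2 ratios of -0.19 and -0.45.

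The irradiation ratios of the 2 labels come from separate arrays and can be set side by side. Of 49 members, 11 were higher and 15 lower after irradiation in both, and 22 went opposite ways, with Orc2 at exactly 1 in Wip1+/+ cells. These counts were not made over all genes, so they cannot be set against a background. Pearson r across the 49 members was -0.10, and 0.09 across all genes, as a description of genes that are not independent. The genotype ratios before and after irradiation had r of -0.11 across the members and 0.32 across all genes. Of the macrophage markers above, 16 of 16 that entered were lower under the Wip1-/- label after irradiation and 15 of 16 before, and their part in the members' values was not tested.

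Members with and without the E2F motif in the promoter were set side by side. The 14 members with it had a median log2 irradiation ratio of 0.02 in cells labelled Wip1-/- and -0.11 in Wip1+/+ cells. The 26 members without it that entered had -0.11 and -0.01. In Wip1+/+ cells 8 of 14 with the motif were below 1, and 13 of 26 without it. The ranges overlapped in every comparison.

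A second list of the pathway held 54 further genes, among them E2F and pocket proteins, D cyclins, checkpoint mediators and nucleotide enzymes, of which 52 entered. In irradiated over unirradiated Wip1+/+ cells 31 were higher and 21 lower, beside 52.3% and 47.4% of all genes, with a median of 0.04. None was 2-fold apart there or between the irradiated genotypes. In irradiated over unirradiated cells labelled Wip1-/-, 7 were at least 2-fold higher and 1 lower, beside 5.7% and 4.63% of all genes. Dck, deoxycytidine kinase, was 2.65-fold higher by its brightest probe set, and its others gave log2 ratios of 0.16 and -0.33. Clspn, the checkpoint mediator claspin, was 2.2-fold higher, Dna2, a nuclease and helicase, 2.28-fold, and Topbp1, a checkpoint and initiation scaffold, 2.09-fold. Against a signal at the floor, Ticrr, the initiation factor treslin, was at least 3.38-fold higher, Mcm9 at least 2.72-fold and Recql4 at least 2.71-fold. Nasp, a histone chaperone, was the lower one, with 987 on the irradiated and 2302.5 on the unirradiated array labelled Wip1-/-, against 825 and 851 on the Wip1+/+ arrays. All 8 involve the array with the deviating spike-in signals.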

How the data were processed

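Signal intensity was deposited by the authors as 1 value per probe set and array, made with GCOS per the submitters' processing notes; the trimmed means lay near 500 on each array, so the deposited scaling was kept. From these intensities, values under 46.5, the 40th percentile of all arrays, were set to that floor. Of the probe sets, 34945 name 1 gene, 932 several and 9160 are unlisted here. The brightest probe set by mean stood for a gene, which entered if that mean reached 67.95. Log2 ratios of arrays were taken, and the SD between probe sets of a gene served as error, covering probes and not cultures. No test was possible with 1 array per group, and array number limits precision. Values were printed for members at least 1.5-fold apart in a pair and for the member nearest to 1 in each role; Pcna, Pold1, Cdt1, Dbf4, Rrm2 and Ccne2 were added after their values were seen. The members and lists were chosen with earlier results of these data known. Alternatives were quantile normalization, cyclic loess, another scaling, other floors and filters, and other probe set rules (limma 3.58.1, R 4.3.3). The ratio and count steps were tested on simulated data.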

Additional observations from a re-analysis of the deposited data

Results flagged for a closer look

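Mcm2 had opposite irradiation ratios under the 2 labels by its brightest probe set, with a log2 ratio of 1.24 in cells labelled Wip1-/- and -0.80 in Wip1+/+ cells, a difference of 2.04. Its other probe set gave -0.21 and -0.28. Gins3 had -1.15 in cells labelled Wip1-/- and 1.06 in Wip1+/+ cells, a difference of -2.21, and its other probe set gave 0.17 and 0.25. With 1 array per group neither difference was tested. Over all genes, 246 of 11546 (2.13%) had opposite irradiation ratios past 1.5-fold, as these 2 did.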

How the results depend on the processing

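No paired analysis was possible because each group held 1 array. Counts past 1.5-fold depended on the filter, the probe set rule and the threshold. A mean signal of 500 kept 31 of 49 members and 6398 of 11546 genes, and the 67th percentile filter 46 members and 8507 genes. Counts fell there because fewer genes entered, with unchanged ratios. Of the 6398 genes, 668 were lower after irradiation of cells labelled Wip1-/-. In Wip1+/+ cells 72 were higher and 38 lower, and between irradiated genotypes 125 and 182. Shares of all genes under the other 1.5-fold settings were not counted. After irradiation of cells labelled Wip1-/-, 10 members were higher, but 3 with the median over probe sets, 5 without the probe sets marked _x_at or _s_at (which can match several transcripts) and 3 at 2-fold; 10 were lower, but 4 where the mean signal had to reach 500 and 2 at 2-fold. In Wip1+/+ cells 2 were higher, but 1 with a filter at the 67th percentile, 0 with a mean signal of at least 500 and 1 at 2-fold. There 2 were lower, but 1 with quantile normalization, cyclic loess, the 67th percentile filter, without _x_at and _s_at probe sets or a mean of 500 or more, and 0 with the median over probe sets or at 2-fold. Between irradiated genotypes 2 were higher, but 1 with the 67th percentile filter, without _x_at and _s_at probe sets, a mean of 500 or more or at 2-fold, and 2 were lower, but 1 with that filter, a mean of 500 or more or at 2-fold. Between unirradiated genotypes 10 were higher, but 5 with a mean of 500 or more and 2 at 2-fold, and 8 were lower, but 3 with the median over probe sets, without _x_at and _s_at probe sets or at 2-fold.

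The member median after irradiation of cells labelled Wip1-/- (-0.106) turned to 0.067 where the mean signal had to reach 500, and to 0.098 relative to all genes. Between unirradiated genotypes it (-0.014) turned to 0.047 with quantile normalization, 0.024 with cyclic loess, 0.03 with scaling by the median of brighter probe sets, 0.019 without a filter (0.019 relative to all genes), 0.023 with the median over probe sets and 0.08 without _x_at and _s_at probe sets (0.031 relative to all genes). The MCM median after irradiation of cells labelled Wip1-/- (0.658) turned to -0.003 with the median over probe sets and -0.094 without _x_at and _s_at probe sets, and between unirradiated genotypes (-0.888) it was -0.209 and -0.201; these MCM alternatives were chosen after seeing the data. Without _x_at and _s_at probe sets the irradiation ratio in cells labelled Wip1-/- was -0.214 for Mcm2, -0.213 for Mcm5 and -0.364 for Mcm7, and the ratio between unirradiated genotypes was 0.362 for Mcm7. With the median over probe sets it was -0.22 for Mcm6 and -0.065 for Mcm7, and Cdc7 between irradiated genotypes was -0.237. These follow from another probe set standing for the gene; for normalization and filter the cause was not tested. Of 439 alternatives of named members, 7 turned sign and 19 others moved by more than the SD between probe sets. Of the 439, 39 were no longer past 1.5-fold in the same direction, 22 of them with the median over probe sets and 12 without _x_at and _s_at probe sets. Floors and filters could not change these ratios, since the named members' brightest probe sets were above the floor on every array. Such alternatives were 46 each with the floor at the 25th percentile, no floor and no filter. They were 40 with the 67th percentile filter and 27 with a mean of 500 or more. Shares of the 439 are therefore no measure of stability. With 1 array per group, the spread between cultures is unknown.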
